A study of Mus musculus with 6 samples.

Results

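Chemokines are small secreted proteins that direct the movement of leukocytes, and chemokine receptors are the 7-helix, G protein-coupled receptors that read them. They were followed in mouse skin after osimertinib. The members were the genes of a whole-transcriptome table whose names are those of Ccl, Cxcl, Ccr, Cxcr or Ackr genes, together with Xcl1, Xcr1, Cx3cl1 and Cx3cr1. The rule found 60 of the 33308 genes in the table, of which 38 encode ligands and 22 encode receptors.

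RNA-seq was run on 3 skin samples from mice treated with osimertinib for 42 days and on 3 skin samples from untreated mice. Osimertinib inhibits the epidermal growth factor receptor (EGFR) and is used against lung cancer. The series was made to study skin problems under this drug, and the question here is which chemokine transcripts differed after treatment. The labels name no strain, age, dose, vehicle or body site. Nothing in them ties each sample to its own animal, and a p-value here therefore reflects the variation among these 6 samples alone, part of which may be technical.

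Ligands of the Cxcl1, Cxcl2 and Cxcl5 type act on Cxcr2 and Cxcr1 and draw neutrophils, whereas ligands such as Ccl2 and Ccl7 act on Ccr2 and draw monocytes. Cxcl9, Cxcl10 and Cxcl11 are interferon-induced ligands of Cxcr3 on T cells, Ccl20 is the ligand of Ccr6, and Ccl17 and Ccl22 act on Ccr4. Homeostatic ligands are made without inflammation. In skin they include Ccl27, which is made by keratinocytes and read by Ccr10 on skin-homing T cells, and Cxcl14. The atypical receptors (Ackr) bind chemokines without G protein signalling and remove or store them. In skin and in keratinocyte cultures, blockade of EGFR is known to be followed by production of several chemokines.

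The proximal promoters of 5 ligands that the results turn on are shown, because these ligands include members with large positive fold changes and an interferon-induced member with a negative one. Cxcl5 was not matched. Each sequence is 250 bases long and ends 1 base before the transcription start given by RefSeq, 5′ to 3′ on the strand of the gene, from GRCm38.p6. Capitals mark each match, on either strand, to the NF-kappaB-type motif (GGG, 5 bases of any kind, CC) or to the interferon-type motif (GAAA, 2 bases of any kind, GAAA), with overlapping matches run together. The windows are chr5:90890995-90891244 (plus strand) for Cxcl1, chr5:90903649-90903898 (plus strand) for Cxcl2, chr5:90785851-90786100 (plus strand) for Cxcl3, chr1:83116516-83116765 (plus strand) for Ccl20 and chr5:92348890-92349139 (minus strand) for Cxcl10.
Cxcl1: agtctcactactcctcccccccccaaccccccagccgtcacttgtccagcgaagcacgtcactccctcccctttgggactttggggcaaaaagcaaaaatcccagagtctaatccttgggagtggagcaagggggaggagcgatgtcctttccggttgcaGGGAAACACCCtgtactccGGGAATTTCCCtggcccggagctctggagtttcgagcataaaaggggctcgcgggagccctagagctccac
Cxcl2: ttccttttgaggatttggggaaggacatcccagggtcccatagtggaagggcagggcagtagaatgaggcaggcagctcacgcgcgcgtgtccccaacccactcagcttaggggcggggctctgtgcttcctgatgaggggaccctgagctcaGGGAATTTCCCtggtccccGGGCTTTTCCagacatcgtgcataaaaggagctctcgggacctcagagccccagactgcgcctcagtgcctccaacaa
Cxcl3: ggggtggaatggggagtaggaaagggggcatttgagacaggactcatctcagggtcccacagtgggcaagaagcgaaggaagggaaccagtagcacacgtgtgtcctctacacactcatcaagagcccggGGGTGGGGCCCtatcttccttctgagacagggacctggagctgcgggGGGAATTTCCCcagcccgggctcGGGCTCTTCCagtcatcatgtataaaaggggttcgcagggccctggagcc
Ccl20: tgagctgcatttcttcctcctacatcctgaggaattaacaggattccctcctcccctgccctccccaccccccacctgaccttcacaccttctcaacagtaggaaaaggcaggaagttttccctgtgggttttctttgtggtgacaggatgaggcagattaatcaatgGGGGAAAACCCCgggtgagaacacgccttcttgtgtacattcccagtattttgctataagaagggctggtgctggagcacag
Cxcl10: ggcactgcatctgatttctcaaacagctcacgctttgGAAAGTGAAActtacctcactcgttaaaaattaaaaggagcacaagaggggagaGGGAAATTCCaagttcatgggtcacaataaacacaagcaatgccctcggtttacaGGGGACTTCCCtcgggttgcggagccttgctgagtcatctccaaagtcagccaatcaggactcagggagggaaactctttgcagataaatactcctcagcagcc

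The 3 Cxcl1-type promoters held the same 10 letters, GGGAATTTCC. They began 71 bases before the start in Cxcl1, 97 bases before it in Cxcl2 and 73 bases before it in Cxcl3. This exact string was picked after the sequences had been seen, and it occurs on either strand in 0.0853% of the 32817 RefSeq promoter windows of this length. It was in 4 of the 46 members with an entry, the fourth being the receptor Ccr3, which was barely detected. The degenerate NF-kappaB-type motif is common. It was present in 45.8% of all windows and in 24 of the 46 members with an entry (52.2%). The interferon-type motif was present in 2.97% of all windows and in 3 of the 46 members, which were Ccl19, Cxcl10 and Cxcl14. A match describes the letters in the window only.

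Library totals were 59877553 to 60719064 counts in osimertinib skin and 54112624 to 57174797 counts in control skin. Keratinocyte markers such as Krt5 and Krt14 were abundant in every library, as the tissue label implies. The summed level of 8 keratinocyte markers was 10900 to 20500 CPM (counts relative to the TMM-adjusted library size) in osimertinib skin and 11400 to 35500 CPM in control skin. Skeletal muscle content was uneven, with a summed level of 15 muscle markers between 41000 and 73600 CPM in osimertinib skin and between 271 and 164000 CPM in control skin, the lowest being control 3. All 10 hair follicle markers were higher in every osimertinib library than in any control library, as were 10.9% of all genes tested. The summed level of these markers was 858 to 4830 CPM in osimertinib skin, against 25.7 to 253 CPM in control skin. The part of these differences in the chemokine values was not tested, apart from a fit with a muscle score described with the other settings.

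Of the 60 members, 51 had enough counts to be tested, 34 ligands and 17 receptors. Ccl3, Ccl4, Cxcl15, Cxcl17, Ccr3, Ccr6, Cxcr1, Cxcr3 and Cxcr5 were too low. Counts and medians below describe the tested members. A member such as Cxcl3, which passed the filter through its osimertinib libraries, had to be higher there. edgeR's quasi-likelihood test called 0 of the 51 members after Benjamini-Hochberg adjustment over all 19865 genes tested, and it called 0% of all genes in either direction. At an unadjusted p under 0.05, 6 members were higher in osimertinib skin (11.8%, against 6.92% of all genes tested) and 9 were lower (17.6%, against 6.17%). This balance was not stable. It was 9 higher and 6 lower with a replicate block and 9 and 7 with a muscle score as covariate. Among fits with 1 library left out, it was 4 and 8 without osimertinib 1 and 11 and 4 without osimertinib 2. It was 3 and 5 without osimertinib 3, and 6 and 3 without control 1. It was 3 and 10 without control 2, and 9 and 8 without control 3. Shares of all genes tested were not counted for these alternative fits, so their member counts have no background beside them. DESeq2 called 4 members higher (7.84%, against 2.98% of all genes) and 2 lower (3.92%, against 2.32%). In simulated counts DESeq2 exceeded its stated error rate, as described with the processing, so its adjusted p-values are to be read with caution. How far they are off in the real counts was not measured. Limma on log2(FPKM + 1) called 0 members, and it called 0.0201% of all genes higher and 0.00503% lower. On CPM, the 3 osimertinib libraries lay wholly above the controls for 4 members (7.84%, against 10.9% of all genes). They lay wholly below for 6 members (11.8%, against 9.44%), but on FPKM for 3 members only. The share of all genes was not counted on FPKM. Fold changes were positive for 29 members and negative for 22. Their median was 0.13 on the log2 scale, against -0.05 over all genes tested.

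One library stood apart for these genes. Osimertinib 3 had the highest level of 22 of the 51 tested members (43.1%), whereas it was the highest library for 12.2% of all genes tested. Osimertinib 2 was the highest library for 0 of the 51 members, against 20.4% of all genes tested, and control 1 for 14 members (27.5%), against 16.3% of all genes. Values without osimertinib 3 are given beside the results that it moved most.

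**Figure D1:**
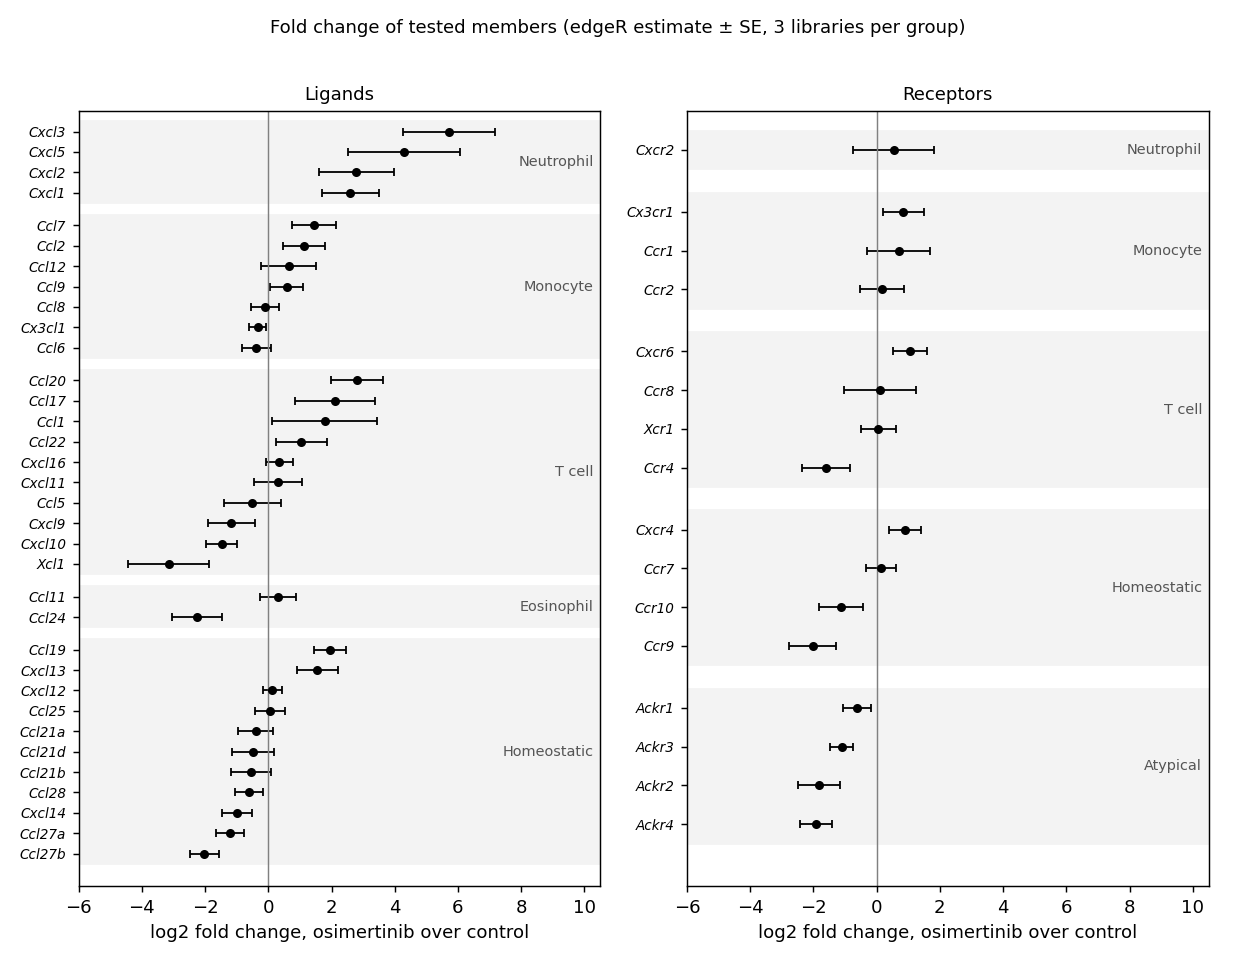
Log2 fold change of tested members, osimertinib over control, from edgeR (x axis; points are estimates, bars ± SE, 3 libraries per group), grouped by role. Cxcl3 and Cxcl5 sit furthest to the right, at 5.72 and 4.29, followed by Ccl20, Cxcl2 and Cxcl1, and all 4 tested atypical receptors lie below 0.

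Ligands of neutrophils had higher mean levels in osimertinib skin, although edgeR called 0 of them after adjustment. Cxcl1, Cxcl2 and Cxcl5 had log2 fold changes of 2.60 to 4.29, and Cxcl3, whose passing of the filter favoured a positive value, had one of 5.72. Their summed level was 20.9, 9.47 and 90.4 CPM in osimertinib 1, 2 and 3, against 2.78, 2.83 and 11.3 CPM in control 1, 2 and 3. The sum of osimertinib 2 was thus below that of control 3, and osimertinib 3 was the highest library for all 4 ligands. More cells of a type and more RNA per cell cannot be told apart in such bulk tissue.

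Cxcl3 (chr5:90786103-90789600, plus strand), a Cxcr2 ligand, had 2.33, 0.469 and 10.4 CPM in osimertinib skin, against 0.144, 0 and 0.0938 CPM in control skin. All 3 osimertinib libraries were above all controls, and a count of 0 in a library allows up to 3 counts, 0.0469 to 0.0649 CPM. The log2 fold change was 5.72 ± 1.45 (SE, n = 3 per group), with an adjusted p of 0.236 by edgeR and of 0.000136 by DESeq2. DESeq2 also called Cxcl3 in each of the 6 fits with 1 library left out. With so few control counts its size is uncertain, and it was 4.10 without osimertinib 3.

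Cxcl1 (chr5:90891241-90893115, plus strand), the most abundant of these ligands per transcript length at a mean of 11.4 FPKM in osimertinib skin and 1.9 FPKM in control skin, had 12.3, 6.90 and 53.6 CPM in osimertinib skin, against 2.31, 2.14 and 7.56 CPM in control skin. Osimertinib 2 was just below control 3, so the groups overlapped. The log2 fold change was 2.60 ± 0.91 (SE), with an adjusted p of 0.325 by edgeR and of 0.0333 by DESeq2. Without osimertinib 3 it was 1.29, and DESeq2 gave an adjusted p of 0.389. DESeq2 called Cxcl1 in 3 of the 6 fits with 1 library left out, and it was also not called without control 1 or control 2.

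Cxcl2 (chr5:90903871-90905938, plus strand) had 5.58, 2.03 and 23.3 CPM in osimertinib skin, against 0.323, 0.692 and 3.44 CPM in control skin. Only control 3 reached into the range of the osimertinib libraries. Its log2 fold change was 2.79 ± 1.18 (SE), with an adjusted p of 0.388 by edgeR and of 0.0865 by DESeq2. Cxcl5 was lower, at 0.633, 0.0625 and 3.00 CPM in osimertinib skin and 0, 0 and 0.172 CPM in control skin, with a log2 fold change of 4.29 ± 1.76 (SE) and an adjusted p of 0.373 by edgeR. Its groups overlapped, since osimertinib 2 was below control 3. Without osimertinib 3 the log2 fold changes were 1.38 for Cxcl2 and 2.51 for Cxcl5. Cxcl15, a ligand known from lung, had counts in osimertinib 3 alone, at 0.0642 CPM.

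Cxcr2, the receptor of these ligands on neutrophils, had 1.20, 1.11 and 0.674 CPM in osimertinib skin and 0, 0.346 and 1.69 CPM in control skin. The libraries overlapped widely, and the log2 fold change of 0.54 ± 1.29 was within its error. Cxcr1 had counts in control 3 alone, at 0.391 CPM. A list of 15 neutrophil markers, Cxcr2 among them, was measured beside the ligands. Of these, 14 were in the table and 10 were tested, 8 with positive and 2 with negative fold changes. Their summed level was 235, 80.6 and 603 CPM in osimertinib skin, against 23.6, 35.2 and 44.6 CPM in control skin. That sum was led by S100a8 and S100a9, which keratinocytes can also make. These genes, Clec4d and Stfa2, 4 of the 10 tested markers, were higher in every osimertinib library than in any control library, as were 10.9% of all genes tested. Clec4d, a receptor of myeloid cells, had 3.97, 2.01 and 17.2 CPM in osimertinib skin, against 0.144, 0.692 and 1.02 CPM in control skin, and a log2 fold change of 3.64 ± 1.05, with an adjusted p of 0.266 by edgeR and of 0.00354 by DESeq2. Csf3r, the receptor of a neutrophil growth factor, had a log2 fold change of 1.28 ± 0.74 with overlapping groups. Mpo, which was too low to be tested, was at 0 in all 3 osimertinib libraries and at 0.323, 0 and 0.359 CPM in control skin, and Ly6g, at 0.177 CPM, was detected in osimertinib 3 alone. The part of neutrophil content in the ligand values was not tested.

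**Figure D2:**
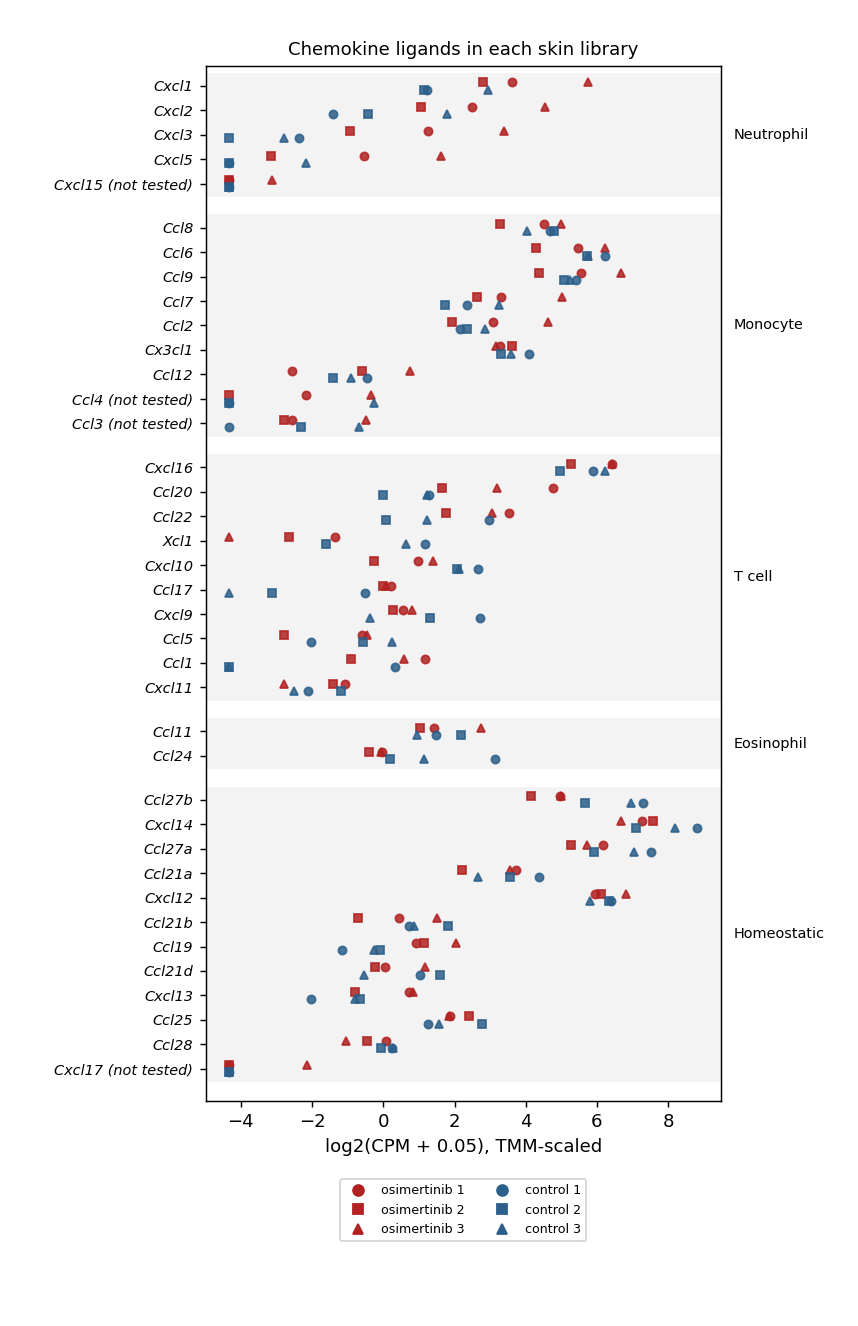
Level of each ligand in each library as log2(CPM + 0.05) (x axis), by role; each point is a library, with osimertinib (red) drawn just above control (blue). Osimertinib 3 is the highest point for Cxcl1, Cxcl2 and Cxcl3, and the osimertinib points lie below all control points for Ccl27b and Cxcl10; points at the left edge are counts of 0.

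Ligands of monocytes and macrophages differed less, with 4 positive and 3 negative fold changes among 7 tested members and a median of 0.58 on the log2 scale. Their summed level was 142, 72.6 and 279 CPM in osimertinib skin and 170, 133 and 138 CPM in control skin. Osimertinib 3 was the highest library for 6 of the 7, and without it the median of the group was -0.21. The direction of the group therefore rested on that library.

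Ccl7 (chr11:82045712-82047525, plus strand), a ligand of Ccr2 and Ccr1, had 9.93, 6.17 and 32.6 CPM in osimertinib skin, against 5.08, 3.29 and 9.49 CPM in control skin. Osimertinib 2 lay inside the control range. The log2 fold change was 1.45 ± 0.70 (SE), with an adjusted p of 0.439 by edgeR, and it was 0.47 without osimertinib 3. Ccl2, the main ligand of Ccr2, had 8.37, 3.76 and 24.4 CPM in osimertinib skin and 4.38, 5.06 and 7.23 CPM in control skin, a log2 fold change of 1.13 ± 0.66. Osimertinib 2 was below every control, and without osimertinib 3 the log2 fold change of Ccl2 was 0.15.

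Ccl9, a ligand of Ccr1, had 46.4, 20.7 and 103 CPM in osimertinib skin and 42.8, 33.5 and 37.6 CPM in control skin, again with osimertinib 2 as the lowest and osimertinib 3 as the highest library. The most abundant monocyte ligands per transcript length were Ccl8, at a mean of 36.7 FPKM in osimertinib skin and 37.5 FPKM in control skin, and Ccl6, at 22.5 FPKM and 28.4 FPKM. Their log2 fold changes were -0.11 ± 0.44 and -0.38 ± 0.46, both within their errors, and were -0.50 and -0.90 without osimertinib 3. Cx3cl1, the membrane-bound ligand fractalkine, was even across libraries, at 9.65, 12.1 and 8.93 CPM in osimertinib skin and 17, 9.75 and 11.9 CPM in control skin. Ccl12, another Ccr2 ligand of mice, was scarce and had a log2 fold change of 0.65 ± 0.87. Ccl3 and Ccl4, inflammatory ligands of macrophages, reached at most 0.738 CPM in osimertinib skin and 0.781 CPM in control skin.

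Receptors of monocytes had small positive log2 fold changes, namely 0.18 ± 0.70 for Ccr2, 0.70 ± 0.99 for Ccr1 and 0.84 ± 0.65 for Cx3cr1, with overlapping groups for these 3. The highest library was osimertinib 3 for each of them. Without it the log2 fold changes were -0.45 for Ccr2, -1.03 for Ccr1 and 0.50 for Cx3cr1. The summed level of 10 macrophage markers was 290 to 885 CPM in osimertinib skin and 392 to 404 CPM in control skin, with osimertinib 2 and osimertinib 3 at the ends. Of these markers, 3 had positive and 7 negative fold changes. The part of macrophage content in these values was not tested.

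Ligands of T cells did not share a direction. Of 10 tested members, 6 had positive and 4 negative fold changes, and the median was 0.33 on the log2 scale. Osimertinib 1 was the highest library for 5 of the 10. The Ccr6 and Ccr4 ligands Ccl20, Ccl17 and Ccl22 had positive fold changes, whereas the interferon-induced Cxcl9 and Cxcl10 and the Xcr1 ligand Xcl1 had negative ones.

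Ccl20 (chr1:83116766-83119167, plus strand), which attracts Ccr6-bearing T cells and dendritic cells, had 27.2, 3.09 and 9.18 CPM in osimertinib skin, against 2.40, 0.952 and 2.30 CPM in control skin. All 3 osimertinib libraries were above all controls, osimertinib 1 by far the most. Its log2 fold change was 2.80 ± 0.83 (SE), with an adjusted p of 0.273 by edgeR and of 0.00767 by DESeq2. DESeq2 called Ccl20 in 5 of the 6 fits with 1 library left out. In the sixth, without osimertinib 1, the adjusted p was 0.122 and edgeR's log2 fold change was 1.70. The receptor Ccr6 was too low to be tested, at 0 to 0.0963 CPM in osimertinib skin and 0.0538 to 0.173 CPM in control skin.

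Ccl17, a ligand of Ccr4, had 1.11, 0.937 and 1.01 CPM in osimertinib skin, against 0.646, 0.0649 and 0 CPM in control skin. The groups did not overlap, but the control libraries spread widely, and the log2 fold change of 2.10 ± 1.27 had an adjusted p of 0.545 by edgeR. Its neighbour Ccl22 had a log2 fold change of 1.05 ± 0.80. Ccr4, the receptor of both, had 4.23, 1.94 and 0.642 CPM in osimertinib skin and 9.26, 2.79 and 8.78 CPM in control skin. Only osimertinib 1 reached into the control range, and the log2 fold change was -1.61 ± 0.76, with an adjusted p of 0.427 by edgeR. It was -1.14 without osimertinib 3, the lowest library.

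Cxcl10 (chr5:92346638-92348882, minus strand), an interferon-induced ligand of Cxcr3, had 1.93, 0.781 and 2.57 CPM in osimertinib skin, against 6.21, 4.11 and 4.34 CPM in control skin. Every osimertinib library was below every control. The log2 fold change was -1.47 ± 0.49 (SE), with an adjusted p of 0.301 by edgeR and of 0.0549 by DESeq2, and it stayed between -1.83 and -1.11 with any 1 library left out. Cxcl9 had a log2 fold change of -1.17 ± 0.75 and Cxcl11 of 0.31 ± 0.76, both with overlapping groups. Cxcl11 had only 6 to 25 counts per library and was within its error. Whether the 3 neighbouring Cxcr3 ligands share a direction cannot be read from it. Art3 lies opposite 5.91% of the exon bases of Cxcl10, and a gene without a common name lies opposite 41.7% of those of Cxcl11.

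Xcl1, made by T and natural killer cells, had 0.342, 0.109 and 0 CPM in osimertinib skin, against 2.22, 0.281 and 1.52 CPM in control skin. Osimertinib 1 was above control 2, and the log2 fold change was -3.15 ± 1.28 with an adjusted p of 0.370 by edgeR. A gene without a common name lies opposite 18.7% of the exon bases of Xcl1. Cxcl16, the ligand of Cxcr6, was the most abundant T cell ligand per transcript length, at a mean of 20.3 FPKM in osimertinib skin and 16.1 FPKM in control skin. Its log2 fold change of 0.35 ± 0.42 was within its error. Cxcr6 had 3.05, 1.19 and 5.04 CPM in osimertinib skin and 1.58, 1.51 and 1.39 CPM in control skin, a log2 fold change of 1.05 ± 0.54 that was 0.52 without osimertinib 3.

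The remaining T cell members were low. Ccl1, the ligand of Ccr8, had a log2 fold change of 1.78 ± 1.67, and Ccr8 itself one of 0.12 ± 1.14 that was -0.42 without osimertinib 3. Ccl5, made by T cells, had a log2 fold change of -0.50 ± 0.89, and Xcr1, the receptor of Xcl1 on cross-presenting dendritic cells, one of 0.05 ± 0.55. All 4 had overlapping groups. Cxcr3 was too low to be tested, at 0 to 0.144 CPM in osimertinib skin and 0.173 to 0.395 CPM in control skin. Of 12 T cell markers, 5 had positive and 7 negative fold changes, and their summed level was 98.6 to 186 CPM in osimertinib skin and 115 to 261 CPM in control skin. The part of T cell content in these values was not tested.

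Ligands of eosinophils, both of which act on Ccr3, had fold changes of opposite sign, that of Ccl11 within its error. Ccl24 (chr5:135569937-135573049, minus strand) had 0.924, 0.703 and 0.899 CPM in osimertinib skin, against 8.79, 1.10 and 2.14 CPM in control skin. The groups did not overlap on CPM, but control 1 was well above the other controls. On FPKM, osimertinib 3, at 0.612, was above control 2, at 0.586. Its log2 fold change was -2.25 ± 0.79, with an adjusted p of 0.324 by edgeR and of 0.0571 by DESeq2, and it was -0.93 without control 1. Ccl11, eotaxin, had a log2 fold change of 0.32 ± 0.57, which was -0.38 without osimertinib 3. Ccr3 had counts in osimertinib 3 alone, at 0.161 CPM.

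**Figure D3:**
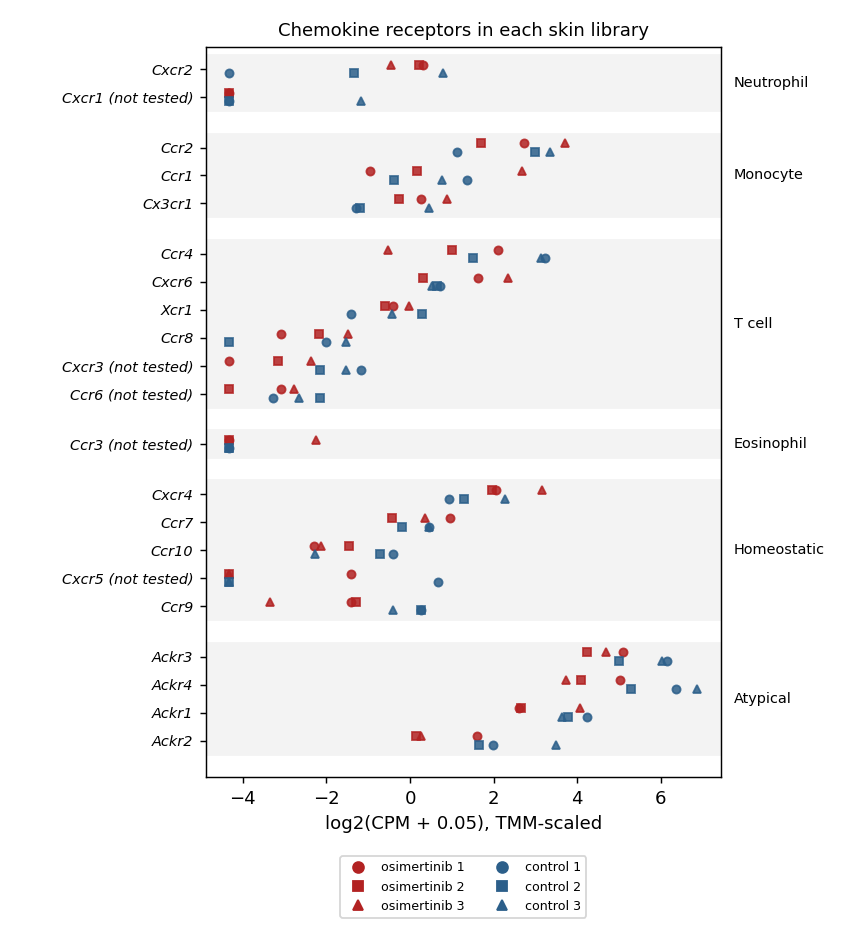
Level of receptors in each library as log2(CPM + 0.05) (x axis), by role; each point is a library, with osimertinib (red) drawn just above control (blue). The osimertinib points of Ackr4 and Ackr2 lie below all their control points, and those of Cxcr2 and Ccr2 are intermixed with theirs.

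Homeostatic ligands included the most abundant members per transcript length, and the top ones had negative fold changes, although edgeR called 0 of the group after adjustment. Among 11 tested members, 4 had positive and 7 negative fold changes, with a median of -0.48 on the log2 scale. Ccl21a, Ccl21b and Ccl21d, which share sequence, were among the negative ones and within their errors. The summed level was even in osimertinib skin, at 340, 331 and 326 CPM, and uneven in control skin, at 902, 355 and 616 CPM. All 3 osimertinib sums were below all control sums, control 2 by a small margin. Summed as FPKM, osimertinib 1, at 183, was above control 2, at 176.

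Ccl27b (chr4:42655251-42655998, plus strand), a copy of the keratinocyte chemokine Ccl27, ranked first of the 60 members at a mean of 56.1 FPKM in osimertinib skin and 231 FPKM in control skin. It had 31.0, 17.7 and 31.9 CPM in osimertinib skin, against 156, 50.5 and 123 CPM in control skin. Every osimertinib library was below every control. The log2 fold change was -2.03 ± 0.46 (SE), with an adjusted p of 0.195 by edgeR and of 0.000991 by DESeq2, which called Ccl27b in each of the 6 fits with 1 library left out.

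Ccl27a (chr4:41769467-41774197, minus strand), the other copy, had 71.4, 38.6 and 52.4 CPM in osimertinib skin, against 182, 60.1 and 131 CPM in control skin. Osimertinib 1 was above control 2, and the log2 fold change was -1.20 ± 0.44, with an adjusted p of 0.337 by edgeR and of 0.115 by DESeq2. The copies cannot be counted apart with certainty, since 97.9% of the 100-base stretches of Ccl27b transcripts also occur in other genes, Ccl27a and Gm13306 among them. Summed over Ccl27a and Ccl27b, the level was 102, 56.3 and 84.2 CPM in osimertinib skin, against 338, 111 and 254 CPM in control skin. The sum did not overlap between groups, and its log2 ratio of means was -1.53. Ccr10, the receptor of Ccl27, was low, at 0.154 to 0.312 CPM in osimertinib skin and 0.156 to 0.700 CPM in control skin, with a log2 fold change of -1.13 ± 0.70.

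Cxcl14, made by epithelium, ranked second per transcript length, at a mean of 72.0 FPKM in osimertinib skin and 141 FPKM in control skin. It had 153, 191 and 103 CPM in osimertinib skin, against 451, 136 and 293 CPM in control skin. Control 2 lay within the osimertinib range, and the log2 fold change was -0.98 ± 0.47, with an adjusted p of 0.435 by edgeR. Cxcl12, the ligand of Cxcr4 and Ackr3, was similar across libraries, at 61.4, 69.4 and 112 CPM in osimertinib skin and 84.8, 80.8 and 55.4 CPM in control skin, and its log2 fold change of 0.13 ± 0.29 was within its error. All 8 keratinocyte markers also had negative fold changes, with a median of -0.80, and control 3 was the highest library for 7 of them. For Ccl27a, Ccl27b and Cxcl14 the highest library was control 1. The part of keratinocyte content in these values was not tested.

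Ccl19, a Ccr7 ligand of lymphoid tissue, was by contrast higher in value. It had 1.85, 2.16 and 4.03 CPM in osimertinib skin, against 0.395, 0.887 and 0.781 CPM in control skin, and the groups did not overlap. Here the log2 fold change was 1.96 ± 0.50 (SE), with an adjusted p of 0.236 by edgeR and of 0.00923 by DESeq2. DESeq2 called Ccl19 in 4 of the 6 fits with 1 library left out, but not without osimertinib 3 or without control 1. Near-identical copies hold 39.3% of its 100-base stretches, and the summed level of Ccl19 with these copies was 9.46, 6.79 and 22.0 CPM in osimertinib skin, against 4.93, 5.41 and 4.91 CPM in control skin. The other Ccr7 ligand, Ccl21, is also encoded by near-identical copies, and the sum of Ccl21a, Ccl21b and Ccl21d was 15.4, 5.94 and 16.8 CPM in osimertinib skin and 24.4, 18.3 and 8.67 CPM in control skin, with wide overlap. Ccr7 itself had a log2 fold change of 0.13 ± 0.48. Cxcl13, a ligand of Cxcr5 that draws B cells, had a log2 fold change of 1.55 ± 0.64 with overlapping groups, and Cxcr5 had counts in osimertinib 1 and control 1 alone. Ccl25, the ligand of Ccr9, and Ccl28, a mucosal ligand of Ccr10, had log2 fold changes of 0.06 ± 0.47 and -0.60 ± 0.44. Cxcl17 had counts in osimertinib 3 alone, at 0.177 CPM.

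Cxcr4, the receptor of Cxcl12, had 4.11, 3.86 and 8.93 CPM in osimertinib skin and 1.85, 2.38 and 4.80 CPM in control skin, a log2 fold change of 0.90 ± 0.51 that was 0.43 without osimertinib 3. Control 3 lay within the osimertinib range. Ccr9, the receptor of Ccl25, was scarce, at 0.325, 0.359 and 0.0482 CPM in osimertinib skin, against 1.15, 1.15 and 0.703 CPM in control skin. Its groups did not overlap, and the log2 fold change was -2.02 ± 0.74, with an adjusted p of 0.337 by edgeR. Other genes on the opposite strand cover 19.0% of its exon bases, and whether counting used strand is not given in the sources used here.

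**Figure D4:**
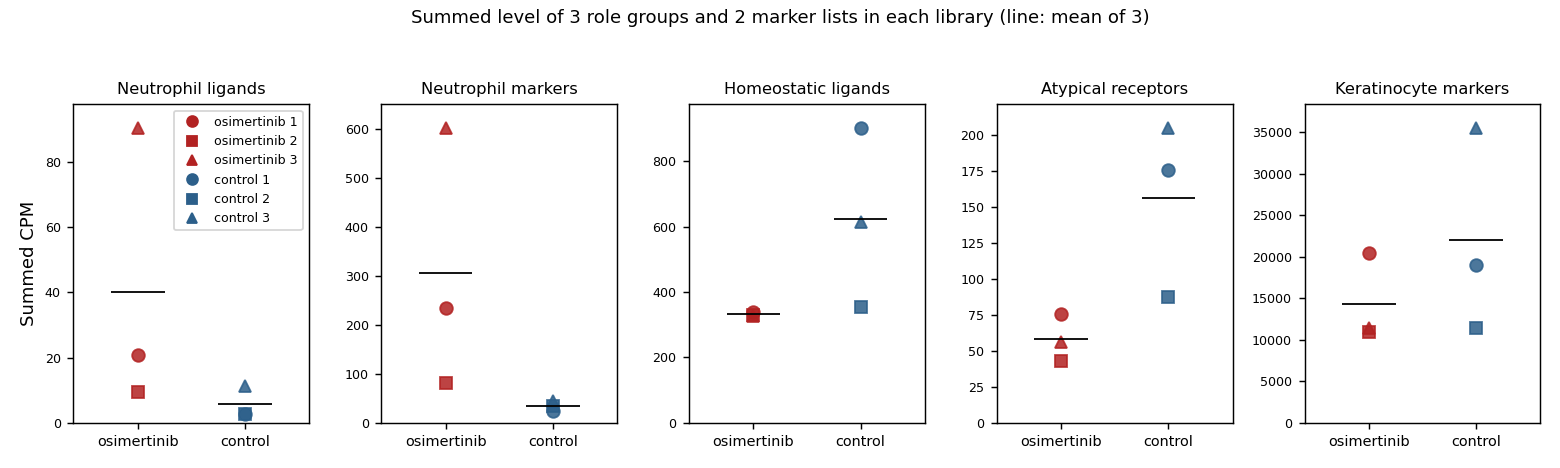
Summed level in CPM (y axis, from 0) of 3 role groups of members and of the neutrophil and keratinocyte marker lists in each library, with osimertinib left of control and lines for the mean of 3. Osimertinib 3 is highest for both neutrophil ligands (90.4 CPM) and neutrophil markers (603 CPM), and all osimertinib sums of the homeostatic ligands and atypical receptors lie below the control sums.

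Atypical receptors had lower mean levels in osimertinib skin, although edgeR called 0 of them after adjustment. All 4 tested members had negative fold changes, with a median of -1.46 on the log2 scale. Their summed level was 75.9, 43.2 and 56.5 CPM in osimertinib skin, against 176, 87.3 and 205 CPM in control skin, with no overlap. Summed as FPKM the groups overlapped, with osimertinib 3 at 19.6 and control 2 at 19.

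Ackr4 (chr9:104084157-104126933, minus strand), which takes up the ligands Ccl19, Ccl21 and Ccl25, had 32.6, 16.9 and 13.3 CPM in osimertinib skin, against 82.8, 38.8 and 117 CPM in control skin. Every osimertinib library was below every control. On FPKM, however, osimertinib 1, at 5.11, was just above control 2, at 5. The log2 fold change was -1.92 ± 0.50 (SE), with an adjusted p of 0.246 by edgeR and of 0.00763 by DESeq2. DESeq2 called Ackr4 in 2 of the 6 fits with 1 library left out, those without osimertinib 1 or without control 2, and its adjusted p reached 0.1 without control 1. With any 1 library left out, edgeR's estimate stayed between -2.39 and -1.52. Acad11 lies opposite 8.90% of the exon bases of Ackr4.

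Ackr3 (chr1:90203980-90216751, plus strand), which takes up Cxcl12, had 34.2, 18.9 and 25.5 CPM in osimertinib skin, against 71.1, 31.9 and 65.1 CPM in control skin. Osimertinib 1 was just above control 2. Its log2 fold change was -1.10 ± 0.36, with an adjusted p of 0.303 by edgeR and of 0.0878 by DESeq2. Ackr2, which degrades inflammatory Ccl ligands, had 2.96, 1.05 and 1.14 CPM in osimertinib skin, against 3.89, 3.07 and 11.2 CPM in control skin. Its groups did not overlap on CPM, by a narrow margin, but on FPKM osimertinib 1, at 0.794, was above control 2, at 0.677. The log2 fold change of -1.82 ± 0.67 was -1.02 without control 3. Ackr1, known from red cells and venules, had a log2 fold change of -0.62 ± 0.45 with overlapping groups. Cadm3 covers 25.7% of the exon bases of Ackr1 on the same strand, so their reads cannot be fully counted apart. Of 6 lymphatic markers, 2 had positive and 4 negative fold changes, with a median of -0.52. Lyve1 had 5.17, 1.80 and 4.13 CPM in osimertinib skin, against 14.5, 9.73 and 6.41 CPM in control skin, and a log2 fold change of -1.47 ± 0.49, whereas Pdpn, which other skin cells also make, had one of 0.99 ± 0.38. Neither overlapped between groups. Pdpn was the largest part of the markers' summed level in osimertinib skin, which was 19.4 to 42.6 CPM, against 22.9 to 37.0 CPM in control skin. Of 8 blood vessel markers, 4 had positive and 4 negative fold changes, and their summed level was 205 to 459 CPM in osimertinib skin and 244 to 406 CPM in control skin. Control 3 was the highest library for Ackr4 and Ackr2, as for 7 of the 8 keratinocyte markers, whereas control 1 was the highest for Ackr3 and Ackr1. The part of vessel or keratinocyte content in the receptor values was not tested.

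Many members lie side by side in the genome. The neutrophil ligands Cxcl5, Cxcl3, Cxcl15, Cxcl1 and Cxcl2 occupy chr5:90759360-90905938, and all 4 tested members of this cluster had log2 fold changes of 2.60 to 5.72. On the same chromosome, Cxcl9, Cxcl10 and Cxcl11 occupy chr5:92321347-92365485 and had 1 positive and 2 negative fold changes. The positive one, of Cxcl11, was within its error. In the cluster of Ccl27 and Ccl21 copies at chr4:41769467-42773993, Ccl19 had a positive fold change and the other 5 members had negative ones. Those of Ccl21a (-0.40 ± 0.55), Ccl21b (-0.55 ± 0.64) and Ccl21d (-0.48 ± 0.66) were within their errors. The copies share 50.3%, 100% and 96.9% of their 100-base stretches with other genes. The negative values of the Ccl27 and Ccl21 copies are therefore not separate observations. In the cluster of monocyte, eosinophil and T cell ligands at chr11:82035571-82305690, 5 of 6 members had positive fold changes. Ccl11 and Ccl12 among them were within their errors. Without osimertinib 3 the log2 fold changes of Ccl7, Ccl2 and Ccl11 were 0.47, 0.15 and -0.38. In the next cluster, at chr11:83525778-83664683, the 3 tested members had 1 positive and 2 negative fold changes. Over all genes tested, 45.7% had positive fold changes.

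**Figure D5:**
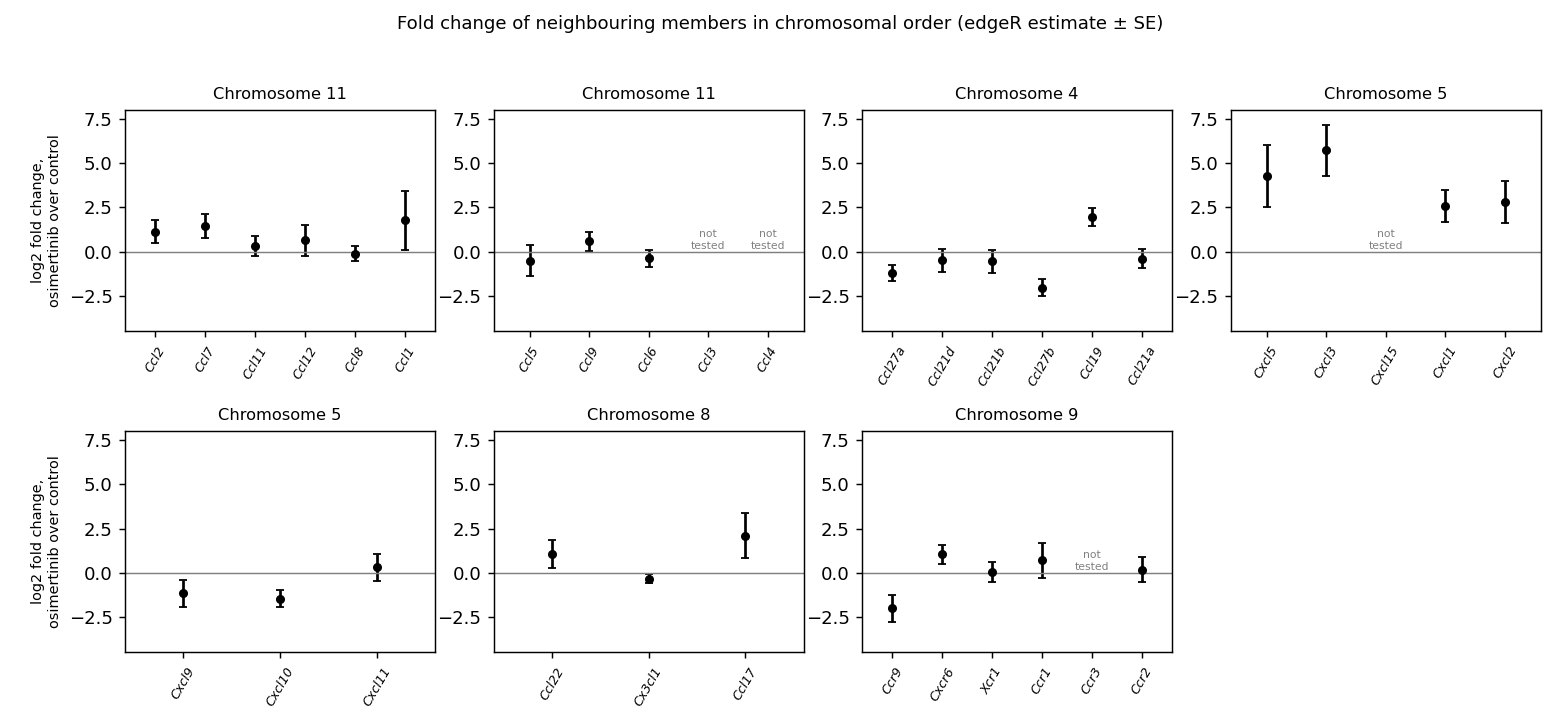
Log2 fold change, osimertinib over control (y axis; edgeR estimate ± SE, 3 libraries per group), of members that neighbour each other, in chromosomal order, with a panel for each cluster. The 4 tested Cxcl1-type ligands all lie above 0, and Ccl19 lies above 0 between Ccl27 and Ccl21 copies that lie below 0. The bars of the Ccl21 copies cross 0.

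Genes that act downstream of the receptors or upstream of the ligands were described from lists. Of 30 genes of receptor signalling, such as G protein subunits, arrestins and their regulators, 15 had positive and 15 negative fold changes, with a median of 0.00. edgeR called 0 of them, with 2 higher and 2 lower at an unadjusted p under 0.05, against 6.92% and 6.17% of all genes. DESeq2 called 1 higher and 1 lower, against 2.98% and 2.32% of all genes. Rgs16, which shortens G protein signalling, had 3.73, 4.73 and 19.4 CPM in osimertinib skin, against 1.97, 2.49 and 2.02 CPM in control skin, a log2 fold change of 2.11 ± 0.67 and an adjusted p of 0.293 by edgeR and of 0.0369 by DESeq2. Osimertinib 3 was again the highest, and without it the log2 fold change was 0.99. Arrb1, which uncouples receptors from G proteins, had a log2 fold change of -0.83 ± 0.22, with an adjusted p of 0.0228 by DESeq2. Its relative Arrb2 had a log2 fold change of 0.62 ± 0.22.

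Of 21 genes that induce chemokines, 18 were tested, 11 with positive and 7 with negative fold changes. edgeR called 0 of them, with 1 higher and 1 lower at an unadjusted p under 0.05, against 6.92% and 6.17% of all genes. DESeq2 also called 1 higher and 1 lower, against 2.98% and 2.32% of all genes. Il17f, a cytokine that induces Cxcl1-type ligands and Ccl20 in epithelium, had 2.24, 1.19 and 3.29 CPM in osimertinib skin, against 0.0718, 0.260 and 0.313 CPM in control skin. All osimertinib libraries were above all controls, and the log2 fold change was 3.37 ± 0.68, with an adjusted p of 0.170 by edgeR and of 0.000101 by DESeq2. DESeq2 called Il17f in each of the 6 fits with 1 library left out. Its relative Il17a had a log2 fold change of 1.48 ± 1.35 with overlapping groups. Ifng, the gene of interferon gamma, was at 0 in all osimertinib libraries and at 0.0718, 0 and 0.109 CPM in control skin, too low to be tested. Il22, also too low, went the other way, at 0.359, 0.0625 and 1.91 CPM in osimertinib skin and 0 in every control. Such values rest on few reads and give no direction. Il6, an inflammatory cytokine, had a log2 fold change of 2.38 ± 1.01 with overlapping groups, and it was 0.67 without osimertinib 3.

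Among 11 related genes outside the rule, 10 were in the table and 9 were tested, 3 with positive and 6 with negative fold changes. Ppbp, which encodes platelet ligands of Cxcr2, had 0.342, 0.625 and 0.995 CPM in osimertinib skin, against 0.251, 0 and 0.219 CPM in control skin, and the groups did not overlap. Its log2 fold change was 2.02 ± 1.05, with an adjusted p of 0.471 by edgeR. Rarres2, the chemoattractant chemerin, and Ccrl2, which binds it, had log2 fold changes of -0.75 ± 0.33 and -0.91 ± 0.44 with overlapping groups.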

How the data were processed

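RNA-seq was analysed for 3 skin samples of osimertinib-treated mice and 3 of untreated mice, grouped by the sample titles. Per the labels' protocols, polyadenylated RNA was used, libraries were stranded through dUTP in the second strand, adapters carried unique molecular identifiers, and reads were paired. The submitters' processing notes list cutadapt 1.9 and the build GRCm38. Not given in the sources used here are the aligner, counter and annotation, or whether counting used strand or identifiers, so reads of near-identical or overlapping genes may have been divided in an unknown way. The authors deposited whole-number counts per gene and, beside them, FPKM values (fragments scaled by gene length and depth, per the file headers). A further 6 columns of values match no sample and were not used.

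Counts were tested with edgeR 4.0.16 (R 4.3.3; TMM scaling, filterByExpr with a minimum count of 10 and total of 15, glmQLFit and glmQLFTest, two-sided, no covariate) over 19865 genes, with Benjamini-Hochberg adjustment over all of them and a threshold of 0.05. The SE of a log2 fold change is its size divided by the square root of F. CPM values use TMM-scaled library sizes, and FPKM was used for levels between genes. A library count of 0 allows 3 counts, and these floors cover counting error only. Alternatives were DESeq2 1.42.0, limma 3.58.1 on log2(FPKM + 1) and on log2(FPKM + 0.1), which understate changes of low genes, RLE and upper-quartile scaling, no filter, a mean FPKM of at least 1, a replicate block, a muscle score as covariate, muscle genes left out, and each library left out (the DESeq2 fits with a library left out were added after seeing the data). Shared sequence was counted as 100-base stretches of GENCODE M21 transcripts. Promoters were matched by symbol for 46 of the 60 members.

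Genes were named as the 3 members of each role and the 3 genes of each other list with the smallest p, the 1 or 2 most abundant members of each role, and members called by any test. Other members were named after their values were seen, to complete their role, as were some genes of the other lists. The members, role groups and lists were chosen with earlier results of these data known. Some genes and their values are not reported here.

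Both tests were tried on simulated counts for 19865 genes in this design, osimertinib against control. The counts were drawn once, with a spread between samples estimated by edgeR, which may favour edgeR. Only a small part of the genes was changed. Of genes changed 2-fold, 4-fold and 8-fold, edgeR called 1.49%, 34.3% and 72.7% and made 3 false calls, and DESeq2 called 13.4%, 83.6% and 93.9% and made 99.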

Additional observations from a re-analysis of the deposited data

How the results depend on the processing

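Calls by DESeq2 (591 genes and 4 members higher, 460 genes and 2 members lower) stand against 0 by edgeR in either direction. With 1 library left out, in the order osimertinib 1 to 3 and control 1 to 3, DESeq2 called 593, 392, 424, 357, 1392 and 833 genes and 3, 5, 2, 5, 3 and 6 members higher. It called 670, 287, 343, 152, 1252 and 345 genes and 6, 2, 3, 1, 7 and 3 members lower. Limma called 4 genes higher and 1 lower on log2(FPKM + 1), and 6 and 4 on log2(FPKM + 0.1), with 3 members wholly below the controls under either. These members were Ccl27b, Cxcl10 and Ccr9, whereas Ackr4, Ackr2 and Ccl24 overlapped on FPKM. With 1 library left out, 4 to 15 members lay wholly above and 6 to 12 wholly below the controls, as fewer libraries must separate. The share of all genes tested was not counted in these fits or on FPKM, so these counts say nothing particular about the members.

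The log2(FPKM + 1) scale, which shrinks low genes, gave medians of 1.13 for neutrophil ligands, -0.37 for eosinophil ligands, -0.19 for homeostatic ligands, -0.02 for homeostatic receptors and -0.83 for atypical receptors. Homeostatic receptors had -0.23 on log2(FPKM + 0.1), -1.10 with no filter and 0.90 at a mean FPKM of at least 1. T cell receptors had -0.47 with no filter and -0.29 at a mean FPKM of at least 1, and neutrophil receptors -2.67 with no filter. These filters test other genes. RLE scaling, upper-quartile scaling and leaving out muscle genes turned no value and moved no count by over 1.5 times. With the muscle score, medians were 4.98 for neutrophil ligands, 1.95 for neutrophil receptors and 0.47 for T cell receptors.

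With 1 library left out, medians ran from 1.94 (without osimertinib 3) to 5.09 (without control 3, where both remaining controls of Cxcl5 are at 0) for neutrophil ligands (3.54 with all libraries), and from -0.01 to 2.52 for neutrophil receptors. They ran from -0.21 to 0.82 for monocyte ligands, -0.37 to 0.82 for monocyte receptors, -0.28 to 0.43 for T cell receptors, -1.32 to -0.35 for eosinophil ligands, -0.72 to -0.09 for homeostatic ligands and -0.64 to -0.24 for homeostatic receptors. Single genes within their errors turned direction, by edgeR and DESeq2: Ccl8 without osimertinib 2 (0.24 and 0.21) or control 2 (0.07 and 0.07), Ccl11 (-0.38 and -0.40) and Ccr1 (-1.03 and -1.03) without osimertinib 3, Ccr2 without osimertinib 3 (-0.45 and -0.46) or control 1 (-0.24 and -0.26), Ccr8 without osimertinib 3 (-0.42 and -0.40) or control 2 (-0.41 and -0.41), and Cxcr2 without control 1 (-0.01 and -0.02). With other libraries left out, edgeR's values reached -0.50 for Ccl8, 0.75 for Ccl11, 1.19 for Ccr1, 0.58 for Ccr2, 0.86 for Ccr8 and 2.52 for Cxcr2. The causes were not tested.

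The replicate numbers did not pair the samples, with correlations of 0.184, -0.0626 and -0.136 between same-numbered samples. With the replicate block edgeR again called 0 genes, and the median of neutrophil receptors was 1.73.

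With these 3 samples per group, changes of 2-fold were seldom detectable in simulation, where no scarce gene was among those changed. Members under 1 CPM rest on few reads.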
